A study of Mus musculus with 6 samples.

Results

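The mammalian circadian clock genes Per1, Per2, Per3, Cry1, Cry2, Arntl (also called Bmal1), Clock, Nr1d1, Nr1d2 and Dbp were examined in mouse primary cortical cultures exposed to NGPF2 or to vehicle. The 10 genes were taken by symbol from the 31245 genes of the deposited expression table. All 10 passed the minimum mean of 10 normalized counts, as did 16653 genes in all. The NGPF2 group held 3 cultures that received NGPF2 (1.5 ng/ml, 2 h), and the vehicle group held 3 cultures that received PBS (2 h). All 6 cultures came from cortices of pups of postnatal day 1 and were used after 12 to 13 days in vitro. The labels name no strain, no genotype and no added allele, and the time of day of harvest is not given in the sources used here. The series describes 3 pairs of vehicle and NGPF2 from 3 experiments, so that a pair here is the NGPF2 and the vehicle culture of the same replicate number. Poly(A) RNA of the whole culture was sequenced, which mixes neurons, glia and any other cells on the coverslip.

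The clock is a transcriptional feedback loop. The proteins of Arntl and Clock pair and activate genes that carry E-box sequences, among them the Per and Cry genes, and the PER and CRY proteins then inhibit that pair. Nr1d1 and Nr1d2, also called REV-ERB alpha and beta, are nuclear receptors that repress Arntl, and Dbp is a clock output whose protein binds D-box sequences. Per1 and Per2 are also known to respond within hours to signals that act through CREB, and Per genes to glucocorticoids. In the brain the loop runs in the suprachiasmatic nucleus and, less tightly coupled, in neurons and astrocytes elsewhere.

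Total counts ran from 17478070 to 45193691 per library, and the counts of the 10 genes from 195 to 6691, where counting error alone is at most 7.16% of a value. Replicates 2 and 3 of both groups share the start of their library names and replicate 1 does not carry it. These 2 sets are called batches here, for their names only. In both groups replicate 1 had the highest total count and replicate 3 the lowest, so that batch and depth cannot be told apart. Values are normalized counts, meaning counts scaled by 1 factor per library, and differences are on the log2 scale of the normalized count plus 1, NGPF2 minus vehicle. Replicate 1 has 1 library per group, so its own difference has no test. Where a contrast sets replicates 2 and 3 against replicate 1, the spread comes from the libraries of replicates 2 and 3 alone, and the single libraries of replicate 1 are assumed to vary like them. Nothing beyond the 3 experiments says how separate the cultures of replicates 2 and 3 were. The p-values set a difference against the spread between these libraries, moderated over all genes kept.

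Promoters are shown for Per3 and Cry1, 2 of the 3 genes that were higher with NGPF2 in replicates 2 and 3, and for Per1, which did not pass there. The choice followed those results, and a link of these sequences to the differences was not tested. Cry1 and Per1 both hold CACGTG and TGACG, and Per3 holds neither. Windows of 250 bases before to 50 bases after a transcript start came from RefSeq on GRCm38.p6. They exist there for 9 of the 10 genes, as 13 windows, and Per2 is the gene named only. Sequences run 5′ to 3′ on the strand of the gene. Capitals mark matches to the E-box CACGTG, the variant E-box CACGTT, which reads AACGTG on the other strand, the short core TGACG of the cyclic AMP response element, or the D-box letters TTATGTAA and TTATGCAA.
Per3, chr4:151044616-151044915, minus strand: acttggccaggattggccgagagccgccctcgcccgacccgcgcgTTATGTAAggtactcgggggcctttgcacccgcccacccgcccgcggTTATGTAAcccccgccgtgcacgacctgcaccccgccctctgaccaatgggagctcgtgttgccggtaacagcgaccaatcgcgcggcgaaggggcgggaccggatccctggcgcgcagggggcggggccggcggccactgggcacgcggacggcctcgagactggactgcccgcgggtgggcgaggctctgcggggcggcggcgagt
Cry1, chr10:85185005-85185304, minus strand: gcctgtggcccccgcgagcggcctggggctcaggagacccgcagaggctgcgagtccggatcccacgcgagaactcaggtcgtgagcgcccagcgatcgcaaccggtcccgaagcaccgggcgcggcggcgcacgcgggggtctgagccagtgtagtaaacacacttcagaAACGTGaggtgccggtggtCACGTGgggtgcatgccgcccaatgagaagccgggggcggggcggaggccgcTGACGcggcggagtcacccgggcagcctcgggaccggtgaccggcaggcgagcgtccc
Per1, the upstream of 2 windows, chr11:69098699-69098998, plus strand: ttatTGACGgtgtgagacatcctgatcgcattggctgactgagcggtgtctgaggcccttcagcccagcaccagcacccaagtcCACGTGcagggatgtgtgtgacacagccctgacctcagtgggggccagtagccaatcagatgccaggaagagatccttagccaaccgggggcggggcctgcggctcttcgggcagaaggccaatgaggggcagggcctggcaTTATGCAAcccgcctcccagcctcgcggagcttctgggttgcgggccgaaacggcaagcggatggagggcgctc

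Positions give the first base of a match relative to the start. Per3 held TTATGTAA at 2 places, -205 and -158, and none of the other sequences searched. Cry1 held CACGTG at -60, CACGTT at -79 and TGACG at -8. The upstream window of Per1 held CACGTG at -166, TTATGCAA at -24 and TGACG at -246. Both strands were searched, CACGTG reads the same on both, and TGACG also lies inside the full element TGACGTCA. Of 32851 promoter windows of the same length, 7.15% held CACGTG, 4.685% CACGTT, 20.81% TGACG, 1.79% TGACGTCA, 0.9376% TTATGTAA and 0.7427% TTATGCAA. Among the 13 windows of the clock genes, CACGTG was found in 2 (Per1 and Cry1), CACGTT in 3 (Cry1, Cry2 and Nr1d1), TGACG in 4 (both windows of Per1, Cry1 and Cry2), TTATGTAA in 1 and TTATGCAA in 1. TGACGTCA was in none of these windows. The site NTAGGTCA, which ROR and REV-ERB proteins read, was in 2.59% of all windows and in 1 of the clock genes, at position 29 in the second window of Arntl. A match is a run of letters in these windows, and factor binding was not measured.

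Levels were compared between genes per exon length, as RPKM computed from the recovered counts (reads scaled to exon length and to the library total). Cry2, a transcriptional repressor, had the highest level of the 10 genes, 27.2 ± 3.09 (SD over all 6 libraries). Nr1d1 followed at 17.6 ± 0.99 and Per1 at 13.2 ± 3.05. Nr1d1 shares 263 exon bases with Thra, a gene on the other strand at a mean of 199. Whether reads of Thra enter the Nr1d1 value is not known. Next came Cry1 at 8.18 ± 1.25, Nr1d2 at 6.88 ± 0.75, Clock at 5.97 ± 1.23, Per2 at 5.52 ± 1.88, Dbp at 5.19 ± 1.35 and Arntl at 3.69 ± 0.73. Per3 was lowest, at 1.19 ± 0.41. Cry2 stood above Nr1d1, Per1 above Cry1 and Arntl above Per3 in all 6 libraries. Nr1d1 stood above Per1, and Cry1 above Nr1d2, in 5 of 6. The genes from Nr1d2 to Arntl in this order did not part cleanly: Nr1d2 exceeded Clock in 4 libraries, Clock exceeded Per2 in 4, Per2 exceeded Dbp in 2, and Dbp exceeded Arntl in 4.

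**Figure D1:**
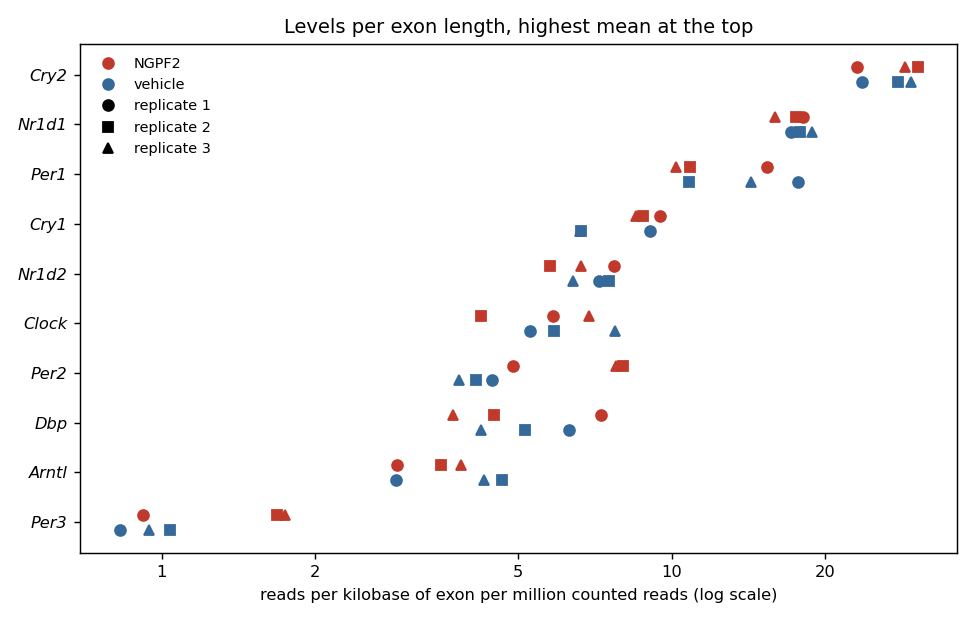
RPKM (reads per kilobase of exon, scaled to the library total, log axis) of the 10 clock genes in each library, ordered by mean, with NGPF2 in red above vehicle in blue and the marker shape giving the replicate. Cry2 (23.1 to 30.4) lies to the right of all other genes and Per3 (0.83 to 1.74) to the left, and the 2 red points of Per2 from replicates 2 and 3 lie apart from its other 4.

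The effect of 2 h of NGPF2 was read in each pair and in each batch. Over all 3 pairs, none of the 10 clock genes passed the test. In pairs 2 and 3, tested alone, the repressors Per2, Per3 and Cry1 rose 2.17-fold, 1.89-fold and 1.43-fold with NGPF2, and none of the 10 fell with the values scaled as deposited. Replicate 1 differed by 0.14, 0.15 and 0.06 on the log2 scale for these genes, in the same direction. The activators Arntl and Clock, the REV-ERB genes and Dbp passed in neither comparison.

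Per2 (ENSMUSG00000055866, chr1:91415982-91459324, minus strand, mm10) encodes a repressor of the ARNTL and CLOCK pair that also responds directly to stimuli. It had 828, 1527 and 1427 normalized counts in NGPF2 cultures 1, 2 and 3, against 751, 711 and 651 in vehicle cultures 1, 2 and 3. All 3 NGPF2 cultures lay above all 3 vehicle cultures, culture 1 by the least. The log2 differences were 0.14, 1.10 and 1.13 in pairs 1, 2 and 3. Tested within replicates 2 and 3 it was 1.12 (SE 0.09, 95% interval 0.88 to 1.36, adjusted p = 0.00343, limma). Over the 3 pairs it was 0.79 (SE 0.22, unadjusted p = 0.0142, adjusted p = 0.379).

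Per3 (ENSMUSG00000028957, chr4:151003652-151044665, minus strand, mm10), the family member of lowest level here, has a less essential part in the loop. It had 255, 524 and 526 normalized counts in NGPF2 cultures 1, 2 and 3, against 230, 293 and 262 in vehicle cultures. NGPF2 cultures 2 and 3 lay above every vehicle culture, whereas NGPF2 culture 1 lay within the vehicle range. Pairs 1, 2 and 3 differed by 0.15, 0.84 and 1.00 on the log2 scale. The difference within replicates 2 and 3 was 0.92 (SE 0.12, 95% interval 0.61 to 1.222, adjusted p = 0.00938), and over the 3 pairs 0.66 (SE 0.21, unadjusted p = 0.0216, adjusted p = 0.379).

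Cry1 (ENSMUSG00000020038, chr10:85131700-85185064, minus strand, mm10) encodes the cryptochrome known as the stronger repressor of the ARNTL and CLOCK pair. It had 915, 952 and 892 normalized counts in NGPF2 cultures 1, 2 and 3, against 876, 651 and 640 in vehicle cultures. The NGPF2 cultures were close to each other and above all vehicle cultures, and vehicle culture 1 stood apart from the other vehicle cultures, near the NGPF2 level. Log2 differences in pairs 1, 2 and 3 were 0.06, 0.55 and 0.48. The difference within replicates 2 and 3 was 0.51 (SE 0.09, 95% interval 0.28 to 0.74, adjusted p = 0.0205), and over the 3 pairs 0.36 (SE 0.14, unadjusted p = 0.0452, adjusted p = 0.379).

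**Figure D2:**
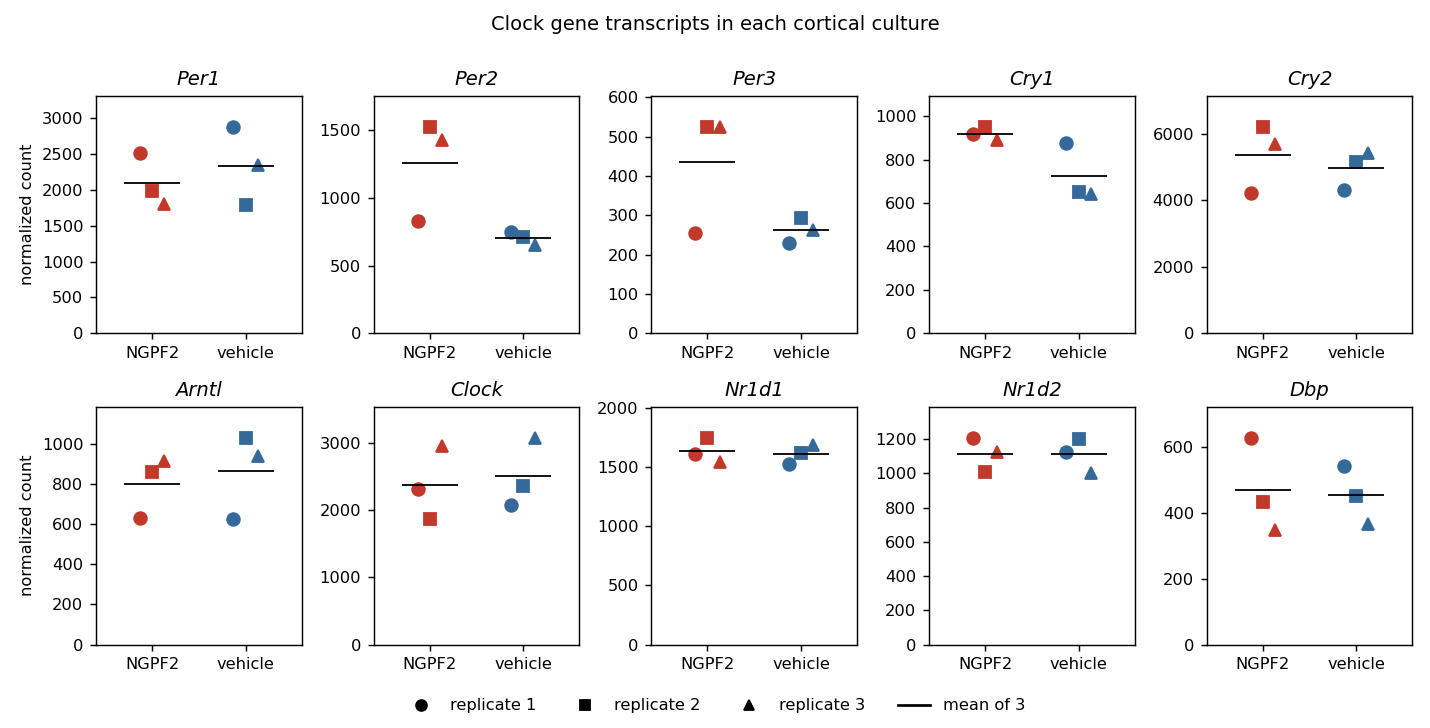
Normalized count of each clock gene in each culture, NGPF2 (red) left of vehicle (blue), 1 panel per gene with its own axis from 0, the marker shape giving the replicate and the line the mean of 3. Squares and triangles of NGPF2 lie above all vehicle points for Per2 (1427 and 1527 against at most 751) and Per3 (524 and 526 against at most 293), and the circles of replicate 1 lie close together in most panels.

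Across all genes, 0 of 16653 (0.0%) passed over the 3 pairs with limma, 2166 had an unadjusted p under 0.05, and voom also called 0. Replicates 2 and 3 alone gave 9.77% of all genes as higher and 11.3% as lower. The 3 of 10 clock genes called higher and the 0 of 10 called lower are to be read against those shares. The median difference of the 10 genes was 0.09, 0.13 and 0.02 in pairs 1, 2 and 3, and that of all genes kept was -0.003, -0.006 and 0.0, with an SD of 0.43, 0.92 and 0.97. In 4.11% of all genes all 3 NGPF2 libraries lay above all 3 vehicle libraries, and this held for Per2 and Cry1.

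The 3 calls in replicates 2 and 3 rest on 2 libraries per group. Without vehicle 2 the differences of Per2, Per3 and Cry1 were 1.18, 1.00 and 0.52 with adjusted p of 0.125, 0.137 and 0.174. Without vehicle 3 they were 1.05, 0.84 and 0.50 with adjusted p of 0.130, 0.147 and 0.183, and in both cases no gene of the table was called. Cry1 was also lost without NGPF2 2 (0.47, adjusted p = 0.0538) and without a variance trend (adjusted p = 0.0619). Without the filter on low values, Per3 (adjusted p = 0.0509) and Cry1 (adjusted p = 0.0556) were lost.

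Markers of cell types moved in the same libraries. Of 14 astrocyte markers 13 were kept and all 13 fell within replicates 2 and 3. Summed normalized counts of the 14 were 38698, 23112 and 19771 in NGPF2 cultures 1, 2 and 3. In vehicle cultures they were 35237, 90809 and 82659, so that the sum was not lower with NGPF2 in replicate 1. Gfap, the astrocyte filament protein, had 3029, 312 and 267 in NGPF2 cultures 1, 2 and 3, against 2914, 9219 and 9265 in vehicle cultures. Of 13 microglia markers 12 were kept and 9 fell. The sums were 2234, 395 and 406 in NGPF2 cultures 1, 2 and 3, against 2113, 1187 and 1114 in vehicle cultures. Among 6 pan-neuronal markers Rbfox3, Tubb3 and Stmn2 rose and none fell. Sums of the 6 were 163247, 213496 and 204602 in NGPF2 cultures 1, 2 and 3, against 163502, 172593 and 169405 in vehicle cultures. Snap25 (0.10), Syt1 (0.17) and Map2 (-0.07) did not pass. The neuronal subtype lists went both ways, with 4 higher and 4 lower of 11 excitatory markers and 5 higher and 3 lower of 10 inhibitory markers. No listed astrocyte, microglia or pan-neuronal marker was at 0 in all libraries. Their part in the clock gene differences was not tested, and in bulk RNA fewer cells of a type and less RNA per cell cannot be told apart. Scaled to the 6 pan-neuronal markers, an alternative chosen after seeing the data, Per2 (0.73, adjusted p = 0.00337) and Per3 (0.53, adjusted p = 0.0197) still passed in replicates 2 and 3 and Cry1 (0.13, adjusted p = 0.299) did not. Under that scaling Arntl (-0.53), Nr1d1 (-0.39), Nr1d2 (-0.43) and Per1 (-0.50) passed as lower. That scaling moved the difference of every gene by the same -0.38 there, and 7192 of the 16653 genes kept were then called in either direction. It rests on markers of which Rbfox3, Tubb3 and Stmn2 were themselves called higher.

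Whether the NGPF2 difference itself differed between the batches was tested by an interaction term, which 2.49% of all genes passed and none of the 10 clock genes did. The difference in replicates 2 and 3 exceeded that in replicate 1 by 0.97 for Per2 (SE 0.17, unadjusted p = 0.00192, adjusted p = 0.0584), by 0.77 for Per3 (SE 0.22, adjusted p = 0.144) and by 0.45 for Cry1 (SE 0.16, adjusted p = 0.206). These 3 genes had an unadjusted p under 0.05 and the other 7 did not. Per2 passed this test in 3 alternatives: with no filter on low values, with a minimum mean of 50 and with quantile scaling.

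**Figure D3:**
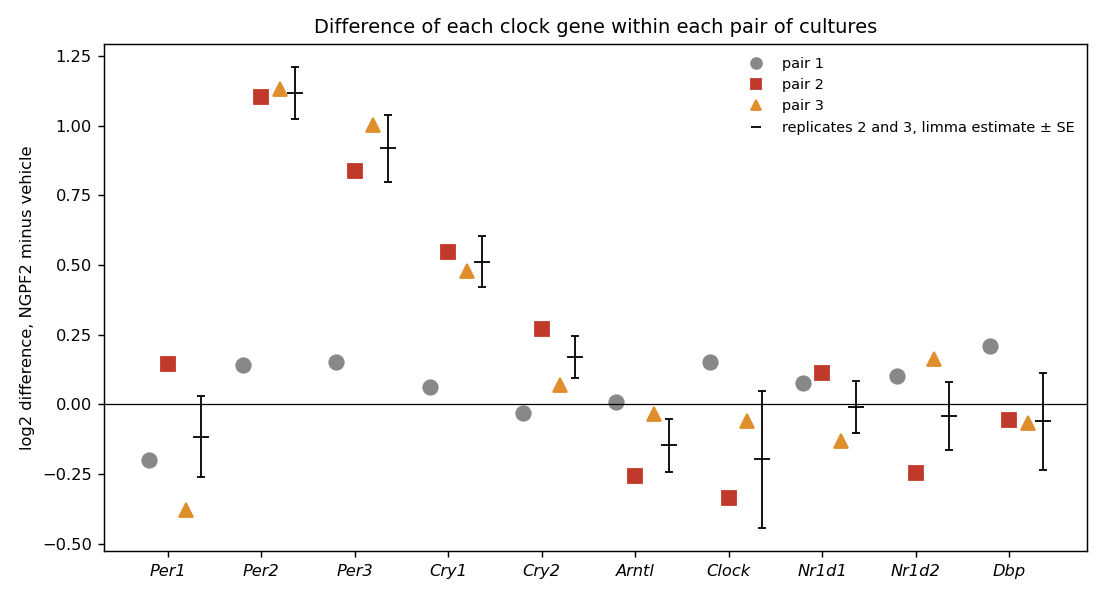
Log2 difference (NGPF2 minus vehicle) of each clock gene in pairs 1, 2 and 3, with the limma estimate for replicates 2 and 3 and its SE as a black bar. Pairs 2 and 3 reach 1.10 and 1.13 for Per2, 0.84 and 1.00 for Per3 and 0.55 and 0.48 for Cry1, whereas pair 1 stays between -0.20 and 0.21 for all 10 genes.

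The remaining Per and Cry genes did not follow Per2, Per3 and Cry1. Per1 (ENSMUSG00000020893, chr11:69095217-69109960, plus strand, mm10) is the family member best known as an immediate responder to CREB signals. It had 2508, 1983 and 1802 normalized counts in NGPF2 cultures 1, 2 and 3, against 2882, 1793 and 2342 in vehicle cultures. The groups overlapped, and pairs 1, 2 and 3 differed by -0.20, 0.15 and -0.38. Replicates 2 and 3 alone gave -0.12 (SE 0.14, 95% interval -0.49 to 0.25, adjusted p = 0.605). Cry2 (ENSMUSG00000068742, chr2:92403646-92434043, minus strand, mm10) had 4222, 6225 and 5688 in NGPF2 cultures and 4315, 5163 and 5417 in vehicle cultures, so that NGPF2 cultures 2 and 3 lay above their vehicle counterparts. Its difference within replicates 2 and 3 was 0.17 (SE 0.08, 95% interval -0.02 to 0.36, adjusted p = 0.173). The upper ends of these intervals stand at 1.19-fold for Per1 and 1.29-fold for Cry2.

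The ratio of Per2 to Per1, each per exon length, was 0.318, 0.740 and 0.761 in NGPF2 cultures 1, 2 and 3, against 0.250, 0.381 and 0.267 in vehicle cultures. NGPF2 cultures 2 and 3 stood apart from the other 4. Per3 to Per2 was 0.188, 0.209 and 0.225 in NGPF2 cultures, against 0.186, 0.251 and 0.246 in vehicle cultures, a narrow range in which the groups overlapped. Cry1 to Cry2 was 0.410, 0.289 and 0.297 in NGPF2 cultures, against 0.384, 0.239 and 0.224 in vehicle cultures, so that replicate 1 of both groups was high.

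Arntl (ENSMUSG00000055116, chr7:113207465-113314126, plus strand, mm10) is the non-redundant activator of the loop. It had 630, 861 and 914 normalized counts in NGPF2 cultures 1, 2 and 3, against 626, 1029 and 936 in vehicle cultures. The cultures of replicate 1 lay below all others, and the groups overlapped. The difference in replicates 2 and 3 was -0.15 (SE 0.10, 95% interval -0.39 to 0.10, adjusted p = 0.326). Clock (ENSMUSG00000029238, chr5:76209868-76304792, minus strand, mm10), whose protein is the partner of ARNTL, had 2322, 1877 and 2961 in NGPF2 cultures and 2088, 2368 and 3084 in vehicle cultures. Its libraries of replicates 2 and 3 differed most within a group among the 10 genes, and the difference was -0.20 with an SE of 0.25 (95% interval -0.82 to 0.43, adjusted p = 0.608).

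Nr1d1 (ENSMUSG00000020889, chr11:98767932-98775333, minus strand, mm10) and Nr1d2 (ENSMUSG00000021775, chr14:18204054-18239127, minus strand, mm10) varied least of the 10 genes relative to their level per exon length. Nr1d1 had 1609, 1748 and 1540 normalized counts in NGPF2 cultures 1, 2 and 3, against 1527, 1617 and 1685 in vehicle cultures. Nr1d2 had 1208, 1011 and 1125 in NGPF2 cultures, against 1127, 1200 and 1005 in vehicle cultures. In both genes the groups overlapped. The differences within replicates 2 and 3 were -0.01 for Nr1d1 (SE 0.09, 95% interval -0.25 to 0.23, adjusted p = 0.956) and -0.04 for Nr1d2 (SE 0.12, 95% interval -0.35 to 0.27, adjusted p = 0.830). Exons of Nr1d1 share 263 bases (8.55% of its exon bases) with Thra, the thyroid hormone receptor alpha gene on the other strand. Since the strand setting of the counting is not stated, reads there cannot be told apart. Thra had 30663, 31551 and 29588 normalized counts in NGPF2 cultures and 29639, 22544 and 21352 in vehicle cultures. It rose within replicates 2 and 3 (0.48, adjusted p = 0.0122, limma), and its part in the Nr1d1 values was not tested.

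Dbp (ENSMUSG00000059824, chr7:45705088-45710203, plus strand, mm10) encodes a PAR bZIP factor driven by the ARNTL and CLOCK pair. It had 629, 435 and 350 normalized counts in NGPF2 cultures 1, 2 and 3, against 544, 453 and 366 in vehicle cultures. Replicate 1 was highest and replicate 3 lowest in both groups, the same order as the total counts, and the groups overlapped. Tested within replicates 2 and 3 it was -0.06 (SE 0.17, 95% interval -0.50 to 0.38, adjusted p = 0.828). Exons of Dbp share 539 bases (18.0% of its exon bases, the largest share among the 10 genes) with Sphk2, a sphingosine kinase gene on the other strand. Reads there cannot be told apart either. Sphk2 had 981, 864 and 729 in NGPF2 cultures and 842, 831 and 825 in vehicle cultures. Cry2 and Arntl share 295 and 33 exon bases with non-coding genes on the other strand (4.67% and 0.439%). The interval of Dbp is the second widest after that of Clock among the 10 genes.

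The batches were also compared directly, replicates 2 and 3 minus replicate 1. Between the vehicle cultures, a contrast added after seeing the data, Arntl was the clock gene that passed. This contrast sets 2 libraries against the single vehicle culture 1, and its spread was pooled over the NGPF2 and vehicle libraries of replicates 2 and 3. It had 1029 and 936 normalized counts in vehicle cultures 2 and 3, against 626 in vehicle culture 1, a difference of 0.65 (SE 0.12, 1.57-fold, adjusted p = 0.0234). Among all genes 19.9% passed this contrast, against 1 of the 10 clock genes. Cry1 differed by -0.44 in the same contrast (SE 0.11, adjusted p = 0.0503), and Per2 differed by -0.14 (SE 0.12, adjusted p = 0.452).

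Averaged over both treatments, 6 of the 10 clock genes passed the batch contrast, against 39.3% of all genes. Higher in replicates 2 and 3 were Arntl by 0.57 (adjusted p = 0.00668), Per3 by 0.65 (adjusted p = 0.00891), Cry2 by 0.39 (adjusted p = 0.00925) and Per2 by 0.35 (adjusted p = 0.0272). Per1 and Dbp were lower, by differences of -0.45 (adjusted p = 0.0423) and -0.55 (adjusted p = 0.0376). For Per2 and Per3 this average includes the raised NGPF2 cultures 2 and 3, and between the vehicle cultures the values were -0.14 and 0.27 without passing. Scaled to the pan-neuronal markers, Per2 stood at -0.0048 and Arntl, Per3 and Cry2 no longer passed, whereas Per1 and Dbp still did. Under that scaling Cry1 (-0.57, adjusted p = 0.00263), Nr1d2 (-0.46, adjusted p = 0.0176) and Nr1d1 (-0.28, adjusted p = 0.0247) passed as lower in replicates 2 and 3. It moves the difference of every gene by 1 same amount. Scaled as deposited, these genes stood at -0.21, -0.11 and 0.07 without passing. The share of 39.3% of all genes belongs to the deposited scaling. Without vehicle 2 or without vehicle 3 none of the 6 passed, Arntl being at 0.54 (adjusted p = 0.0577) and 0.60 (adjusted p = 0.0504). Across the same libraries, the summed astrocyte markers were 90809 and 82659 in vehicle cultures 2 and 3, against 35237 in vehicle culture 1. Summed inhibitory neuron markers were 49526 and 53429, against 119615, although Vip in that list went the other way (1023 and 951, against 386). Excitatory neuron markers summed to 87029 and 89184, against 37614, and fibroblast and mural markers to 756 and 658, against 4551. The part of these markers in the batch differences was not tested.

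Other clock-related genes were examined as 5 lists, of which 60 of 62 genes were kept. Within replicates 2 and 3, 9 rose and 10 fell, none passed over the 3 pairs, and 4 passed the interaction test. Over all genes 9.77% were called higher and 11.3% lower in replicates 2 and 3 and 2.49% passed the interaction test, and the lists' counts stand beside those shares. Of 11 further clock transcription factors kept, Tef rose and Rora, Rorb and Bhlhe40 fell, and the list's median difference was 0.05, -0.24 and -0.34 in pairs 1, 2 and 3. Rorb, a nuclear receptor that activates Arntl and is also in the excitatory neuron marker list, had 578, 76.5 and 101 normalized counts in NGPF2 cultures 1, 2 and 3, against 500, 512 and 483 in vehicle cultures. NGPF2 cultures 2 and 3 stood far below all others (difference within replicates 2 and 3 of -2.49, SE 0.18, adjusted p = 0.0027). Rora, its paralogue, had 1047, 906 and 901 in NGPF2 cultures, against 995, 1599 and 1542 in vehicle cultures (-0.80, adjusted p = 0.0049). Bhlhe40, an E-box repressor, had 604, 1546 and 1432 in NGPF2 cultures, against 582, 2311 and 2146 in vehicle cultures (-0.58, adjusted p = 0.0119). Tef, a PAR bZIP relative of Dbp, had 4821, 7578 and 6633 in NGPF2 cultures, against 4731, 5621 and 5101 in vehicle cultures (0.41, adjusted p = 0.0412). Hlf, the third PAR bZIP gene, differed by -0.74 with an adjusted p of 0.206. Its vehicle cultures 2 and 3 stood apart, at 1605 and 738, and pairs 1, 2 and 3 differed by 0.003, -1.30 and -0.18.

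Of 17 kinases, phosphatases and ubiquitin ligases that set the stability of clock proteins, Gsk3b fell and none rose. Gsk3b had 9219, 4432 and 6694 normalized counts in NGPF2 cultures 1, 2 and 3, against 10906, 11113 and 10726 in vehicle cultures (-1.003, SE 0.20, adjusted p = 0.0260). The 3 others of smallest p in this list, Gsk3a (0.23, adjusted p = 0.0517), Ppp1ca (0.27, adjusted p = 0.0585) and Csnk1a1 (0.23, adjusted p = 0.0619), did not pass. The list's median difference was 0.04, 0.04 and 0.15 in pairs 1, 2 and 3. Of 12 cofactors, Hdac3, the deacetylase recruited by REV-ERB proteins, and Nono, a PER-associated RNA-binding protein, rose by 0.29 (adjusted p = 0.0398) and 0.26 (adjusted p = 0.0481). Sfpq (0.26, adjusted p = 0.0564) and Kmt2a (-0.29, adjusted p = 0.106) did not pass, and the medians were -0.01, 0.02 and 0.00. Scaling to the pan-neuronal markers shifts each difference in the 5 lists by -0.38, which takes those of Hdac3 and Nono below 0 and that of Tef close to 0.

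Of 11 clock outputs kept, Wee1, Noct, Klf9 and Klf10 rose (9.77% of all genes did) and Cdkn1a and Vip fell (11.3% of all genes did), with medians of -0.01, 0.01 and -0.04. Vip is also in the inhibitory neuron marker list. Wee1, the cell-cycle kinase, had 259, 979 and 1010 normalized counts in NGPF2 cultures 1, 2 and 3, against 195, 543 and 557 in vehicle cultures (0.85, SE 0.09, adjusted p = 0.0056). Klf10, a Krüppel-like factor, had 523, 4013 and 3762 in NGPF2 cultures, against 527, 2141 and 2344 in vehicle cultures (0.79, adjusted p = 0.0054). Klf9, its relative and a known glucocorticoid-responsive gene, had 1457, 12547 and 13310 in NGPF2 cultures, against 3019, 8101 and 7594 in vehicle cultures (0.72, adjusted p = 0.0049). Pair 1 of Klf9 went the other way, by -1.05. Cdkn1a, the cyclin-dependent kinase inhibitor p21, had 2366, 1533 and 1531 in NGPF2 cultures, against 2558, 3158 and 3514 in vehicle cultures (-1.12, adjusted p = 0.0026).

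Of 9 CREB and SRF targets known to respond alongside Per1, Junb and Arc rose and Fos, Egr1, Nr4a1 and Dusp1 fell, against 9.77% and 11.3% of all genes, with medians of -0.07, -0.40 and -0.39. Dusp1, a MAP kinase phosphatase, had 1100, 530 and 564 normalized counts in NGPF2 cultures 1, 2 and 3, against 1245, 1254 and 1327 in vehicle cultures (-1.24, SE 0.09, adjusted p = 0.0027). Fos had 2172, 1150 and 1183 in NGPF2 cultures, against 2379, 1774 and 1867 in vehicle cultures (-0.64, adjusted p = 0.0079). Arc had 407, 7301 and 7134 in NGPF2 cultures, against 394, 4739 and 5213 in vehicle cultures (0.54, adjusted p = 0.0106), and Junb differed by 0.59 (adjusted p = 0.0157). Between vehicle cultures, replicates 2 and 3 differed from replicate 1 by 3.65 for Arc, more than the treatments differed in replicates 2 and 3. The same held for Klf10 (2.08), Wee1 (1.49) and Klf9 (1.38), and not for Dusp1 (0.05) or Fos (-0.39). As for Per2, Per3 and Cry1, the calls of these lists coincide with lower astrocyte and microglia marker sums in NGPF2 cultures 2 and 3, whose part was not tested.

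**Figure D4:**
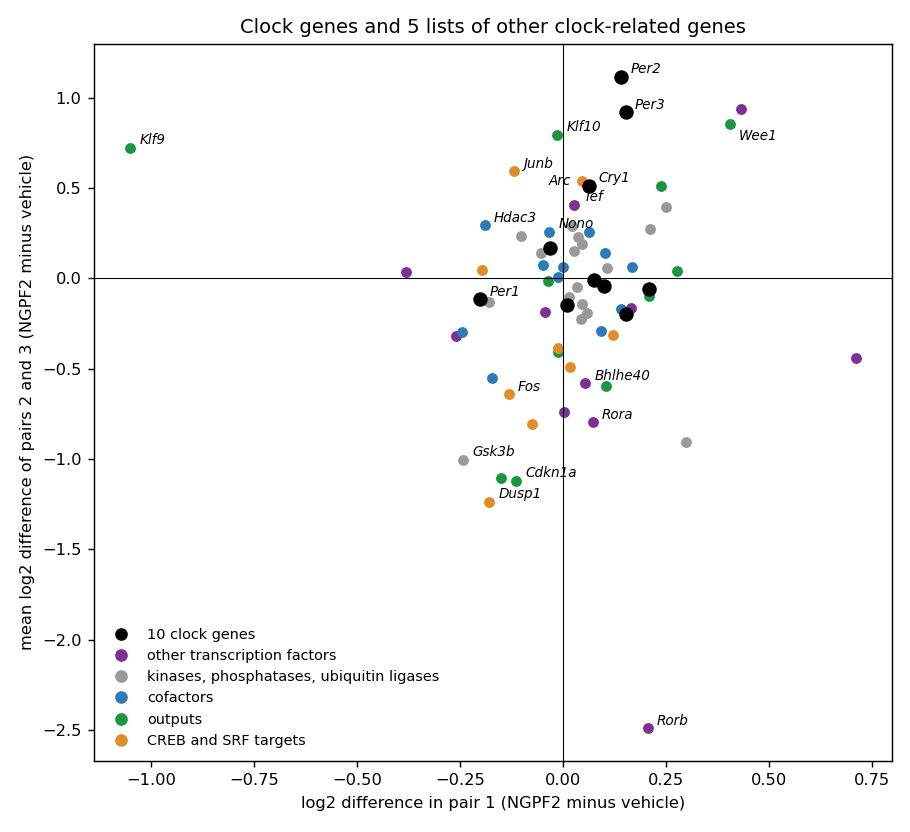
Each of the 10 clock genes (large black points) and of 60 genes from 5 clock-related lists (colours) by its log2 difference in pair 1 (horizontal) and the mean of pairs 2 and 3 (vertical), NGPF2 minus vehicle. Per2 (0.14 and 1.12), Per3 and Cry1 lie in the upper part, Rorb (0.21 and -2.49) lies lowest, and Klf9 (-1.05 and 0.72) lies farthest to the left.

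Genes with the most similar pattern over the 6 libraries were sought for Dbp and Arntl, by the mean absolute distance of log2 values centred on each gene, over 14210 named genes. The nearest to Dbp were Mccc2 at 0.05, Cplane1 at 0.05 and Brpf3 at 0.06, where the median over all genes was 0.36 and the nearest clock gene was Per1 at 0.21. Mccc2 had 620, 433 and 341 normalized counts in NGPF2 cultures 1, 2 and 3, against 580, 413 and 365 in vehicle cultures. The nearest to Arntl were Med28 at 0.02, Sdf4 at 0.02 and Tbc1d15 at 0.03, where the median was 0.35 and the nearest clock gene was Cry2 at 0.15. Med28 had 681, 913 and 939 in NGPF2 cultures, against 659, 1056 and 982 in vehicle cultures. In both patterns the libraries of replicate 1 lay at an end of the range, high for Dbp and low for Arntl. A nearest gene lies below the median by the way it is picked, and far fewer clock genes than named genes were searched. These distances are thus a description and not a test.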

How the data were processed

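Poly(A) RNA of 6 mouse cortical cultures, 3 with NGPF2 and 3 with vehicle, was sequenced, per the labels. The mm10 build, DESeq 1.22.1, STAR 2.5, FastQC and Cuffnorm are listed without roles in the submitters' processing notes. Which annotation, counter and strand setting were used is not given here. Although the table's name says FPKM, the values the authors deposited are log2 of a normalized count plus 1: with 1 step per library, 100% of values gave whole counts (tolerance 0.01). A symbol was found for 31185 of 31245 identifiers. The columns of replicate 1 were assigned by elimination and by their initial, although they carry another digit.

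A minimum mean of 10 normalized counts was set, and genes above it were tested on the log2 values (pseudocount 1) with limma 3.58.1 in R 4.3.3 (empirical Bayes with a variance trend, 2-sided, Benjamini-Hochberg over 16653 genes, threshold 0.05). The fits were the 3 pairs with the replicate number as a block, replicates 2 and 3 without a block (4 libraries), the interaction of treatment and batch, and the batch contrast. Same-numbered libraries deviated together from their group means at r = 0.59, 0.30 and 0.33 across genes for replicates 1, 2 and 3. Exchanged numbers of replicates 2 and 3 gave 0.32 and 0.34, so the numbers separate the batches more than the pairs within a batch. With group means taken over replicates 2 and 3 only, same-numbered libraries gave r = -0.01. Matching of cultures in pairs 2 and 3 is thus not visible in these values. The pairing itself comes from the series' design. Rose and fell refer to an adjusted p under 0.05.

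The clock genes, the 5 clock lists, the 10 marker lists (astrocyte, microglia, oligodendrocyte precursor, oligodendrocyte, endothelial, fibroblast and mural, excitatory, inhibitory and pan-neuronal, red blood cell) and the tests were chosen with earlier results of these data known. From each clock list, up to 4 genes of smallest p in replicates 2 and 3 were named, and other genes of the lists that are named were chosen after their values were seen. Within replicates 2 and 3, 3 of 6 oligodendrocyte precursor markers kept fell, 1 of 9 oligodendrocyte markers rose and 2 fell, 0 of 3 endothelial markers passed, 1 of 11 fibroblast and mural markers rose and 4 fell, excitatory markers (11 kept) gave 4 higher and 4 lower, and inhibitory markers (10 kept) 5 higher and 3 lower. Of 5 red blood cell markers 0 were kept. Exon lengths, coordinates and overlaps came from GENCODE on the same build. Alternatives covered pseudocount, filter, scaling, variance trend, voom, the block and left-out libraries. The test was also run on simulated data with the spread of replicates 2 and 3. Those data held no batch difference and no difference of effect between batches, unlike these libraries, so they cannot show how the test handles either. Python 3.11.15 and matplotlib 3.10.9 drew the figures.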

Additional observations from a re-analysis of the deposited data

Results flagged for a closer look

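For 4 genes of the clock-related lists, the NGPF2 difference itself differed between the batches (interaction term, limma, adjusted p under 0.05), and 2.49% of all genes passed this test. The replicate 1 side has 1 library per group, and the spread comes from replicates 2 and 3 alone. The difference in replicates 2 and 3 exceeded that in replicate 1 by 1.77 on the log2 scale for Klf9 (adjusted p = 0.0104). It lay below that in replicate 1 for Rorb (-2.7, adjusted p = 0.0267), Cdkn1a (-1.01, adjusted p = 0.0412) and Dusp1 (-1.06, adjusted p = 0.0436). None of the 10 clock genes was among them, Per2 having an adjusted p of 0.0584.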

How the results depend on the processing

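Over the 3 pairs, the count of clock genes called ranged from 0 to 3 and that of all genes from 0 to 3275 when 1 replicate was left out, and both maxima came without replicate 1. A pseudocount of 5 and the fit with no replicate block gave 1 gene in all. Within replicates 2 and 3 (3511 genes in all), 1 clock gene and 1074 genes were called without the filter, 1535 genes without the variance trend, and 6 clock genes and 7192 genes under scaling to pan-neuronal markers. These 6 were Per2 and Per3 as higher and Arntl (-0.53), Nr1d1 (-0.39), Nr1d2 (-0.43) and Per1 (-0.50) as lower, beside a shift of -0.38 in the median of all genes. Leaving out 1 library gave 0 to 3 clock genes and 0 to 3206 genes. With the replicate block, 3 clock genes and 3275 genes were called there, and 0 clock genes and 526 genes by the interaction, and the block changed no other call of a clock gene. The interaction called 1 clock gene, Per2, with no filter (4684 genes), with a minimum of 50 (733 genes) and with quantile scaling, against 415 genes in the report. It called 22 genes without the trend, 1392 under pan-neuronal scaling and 0 to 412 with 1 library left out. The batch contrast called 3 clock genes with no filter, 2 without the trend, 1 in vehicle libraries only (3322 genes), and 0 to 5 clock genes and 2280 to 6950 genes with 1 library left out.

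Directions that reversed belonged to differences that had not passed, apart from Per2 in the batch contrast. Over the 3 pairs, pan-neuronal scaling gave -0.16 for Cry2, -0.25 for Nr1d1, -0.26 for Nr1d2 and -0.24 for Dbp. Library totals gave -0.066 for Nr1d1, -0.080 for Nr1d2 and -0.056 for Dbp, voom -0.051 for Nr1d1 and -0.074 for Nr1d2, and quantile scaling -0.0019 and -0.0016. With 1 replicate left out, Clock ranged from -0.20 to 0.047, Nr1d1 from -0.028 to 0.094, Nr1d2 from -0.073 to 0.13 and Dbp from -0.061 to 0.076. Within replicates 2 and 3, Cry2 was -0.21 under pan-neuronal scaling and Dbp 0.056 under quantile scaling. With 1 library left out, Per1 ranged from -0.31 to 0.076, Clock from -0.53 to 0.13, Nr1d1 from -0.10 to 0.083, Nr1d2 from -0.17 to 0.085 and Dbp from -0.22 to 0.10. For the interaction, Per1 was -0.042 under library totals and -0.27 under pan-neuronal scaling, and Cry2 -0.15 under the second of these. With 1 library left out, Per1 ranged from -0.11 to 0.28 and Nr1d1 from -0.18 to 0.0074. In the batch contrast, Per2 was -0.0048 under pan-neuronal scaling and -0.14 in vehicle libraries only, Clock -0.15 and Nr1d1 -0.28 under pan-neuronal scaling, and Nr1d1 -0.0082 under library totals. The causes of these changes were not tested. Library totals, pan-neuronal scaling and vehicle libraries only were chosen after seeing the data. Leaving out 1 vehicle library leaves its arm with 1 sample, assumed to vary like the others, and the interaction could not be fitted without replicate 1.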
